A study of Mus musculus with 8 samples.

Results

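The genes described here are the splicing regulators of the SR and hnRNP families together with the kinases and cofactors that act on SR proteins. They were chosen by gene symbol: the numbered Srsf genes, every gene whose symbol begins with Hnrnp and a letter, Clk1 to Clk4, Tra2a, Tra2b, Srpk1, Srpk2, Srrm1 and Srrm2. This gave 40 of the 38215 genes in the tables (19 hnRNP genes, 11 SR genes, 4 CLK kinases, 2 TRA2 genes, 2 SRPK kinases and 2 SRRM genes), with 268 of the 92351 transcripts. RNA was sequenced from FoxP3+ regulatory T cells that had been sorted from bone marrow (BM-Treg, 4 libraries) and the spleen (SP-Treg, 4 libraries) of naive B6.FoxP3-GFP mice aged 12 weeks, in which green fluorescent protein reports FoxP3. The labels give the genotype as C57Bl/6, and no group was treated. BM-Treg replicates 1 to 3 came from females in batch 1, whereas all SP-Treg libraries and BM-Treg replicate 4 came from males in batch 3, so that batch and sex cannot be told apart and both are largely confounded with tissue. The paper's methods name female mice unless stated otherwise, so the sex of these mice is not settled. The titles of the SP-Treg libraries carry ranges of numbers that overlap between libraries, and the labels do not say whether these are pooled animals or whether libraries share them. If they do, p-values measure a spread that is partly technical.

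SR proteins bind exonic enhancers through RNA recognition motifs and recruit the spliceosome through a domain rich in arginine and serine, while many hnRNP proteins bind silencers in exons and introns and oppose this recruitment, so that the balance of both families sets which exons enter the mRNA. The SRPK kinases phosphorylate SR proteins in the cytoplasm and send them to the nucleus, where the CLK kinases phosphorylate them further. TRA2 proteins are SR-like activators, and SRRM1 and SRRM2 are large cofactors, of which SRRM2 is a scaffold of nuclear speckles. Many of these genes keep their own level in check by splicing in a poison exon, which carries a premature stop codon and sends the transcript to nonsense-mediated decay (NMD), or by retaining an intron. In T cells, exons of the phosphatase CD45 (Ptprc) are a long-studied target of hnRNP proteins.

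The 8 libraries held between 12427136 and 21921252 expected counts (estimated numbers of reads, which need not be whole). The 40 genes took between 1.02% and 1.04% of the counts of a BM-Treg library and between 0.981% and 1.18% of those of an SP-Treg library. Mitochondrial rRNA took between 22.7% and 26.3% of the counts in BM-Treg and between 17.7% and 30.1% in SP-Treg. With it left out, the 40 genes took between 1.32% and 1.41% in BM-Treg and between 1.35% and 1.52% in SP-Treg. The identity of the sorted cells was checked with Foxp3, Il2ra, Cd4, Cd3e, Ikzf2 and Ctla4, which together reached between 7221 and 8574 CPM in BM-Treg libraries and between 7927 and 8746 CPM in SP-Treg, with 0 of 6 called by edgeR and 1 at an unadjusted p under 0.05. Markers of other cells also reached the libraries. The 6 erythroid markers summed to between 12.6 and 32.5 CPM in BM-Treg libraries and to 1.80, 188, 454 and 291 CPM in the SP-Treg libraries, with 0 of 5 tested called by edgeR, 5 at an unadjusted p under 0.05 (all lower in BM-Treg) and no marker at 0 in every library. The 6 B and plasma cell markers summed to between 11.1 and 13.7 CPM in BM-Treg libraries and between 6.55 and 115 CPM in SP-Treg, the 8 neutrophil markers (of which 1 was at 0 in every library) to at most 9.87 and 16.9 CPM, and the 5 markers of plasmacytoid dendritic cells and macrophages to at most 15.6 and 19.5 CPM. Of these 3 lists edgeR tested 4, 2 and 3 genes and called none, with 2, 1 and 0 at an unadjusted p under 0.05. Immediate early genes, which respond to handling, summed to between 813 and 1377 CPM in BM-Treg libraries and between 398 and 734 CPM in SP-Treg, and 4 of the 7 tested were called, 3 of them (Fosb, Junb and Dusp1) higher in BM-Treg and Egr1 lower. The part of these markers in the results below was not tested. In bulk RNA, fewer cells of a type and less RNA per cell cannot be told apart.

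Whether BM-Treg and SP-Treg differ in the level of these regulators was asked first. Of the 40 genes, 5 were downregulated and 0 upregulated in BM-Treg at an adjusted p under 0.05 (edgeR's quasi-likelihood test, Benjamini-Hochberg adjustment over the 13397 genes that passed the expression filter). The 5 were Hnrnpa1, Hnrnpf, Hnrnpc, Tra2a and Hnrnpa2b1. Of all genes tested, 8.75% were called in either direction and 5.02% were called lower in BM-Treg, against 12.5% of the 40 genes, all lower. At an unadjusted p under 0.05 the count was 16, of which 14 were lower and 2, Srsf5 and Srpk1, were higher. Over all 13397 genes tested it was 3119, with 1664 lower and 1455 higher. The log2 fold change of BM-Treg over SP-Treg was below 0 in 30 of the 40 genes with a median of -0.15, whereas it was below 0 in 51.4% of all genes tested with a median of -0.01. The libraries of both tissues did not overlap for 11 of the 40 genes (27.5%, 10 lower and 1 higher), beside 16.2% of all genes tested. On deposited FPKM values, the direction of the calls over all genes shifted: 42.6% of the calls were higher in BM-Treg by counts and 63.0% by log2(FPKM + 1), on which scale the median of all genes was 0.05, and the 40 genes then gave 23 values below 0 with a median of -0.05. On that scale limma called none of the 5 genes and 1 of the 40, Srsf5, which was higher in BM-Treg (5.71% of all genes were called).

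**Figure D1:**
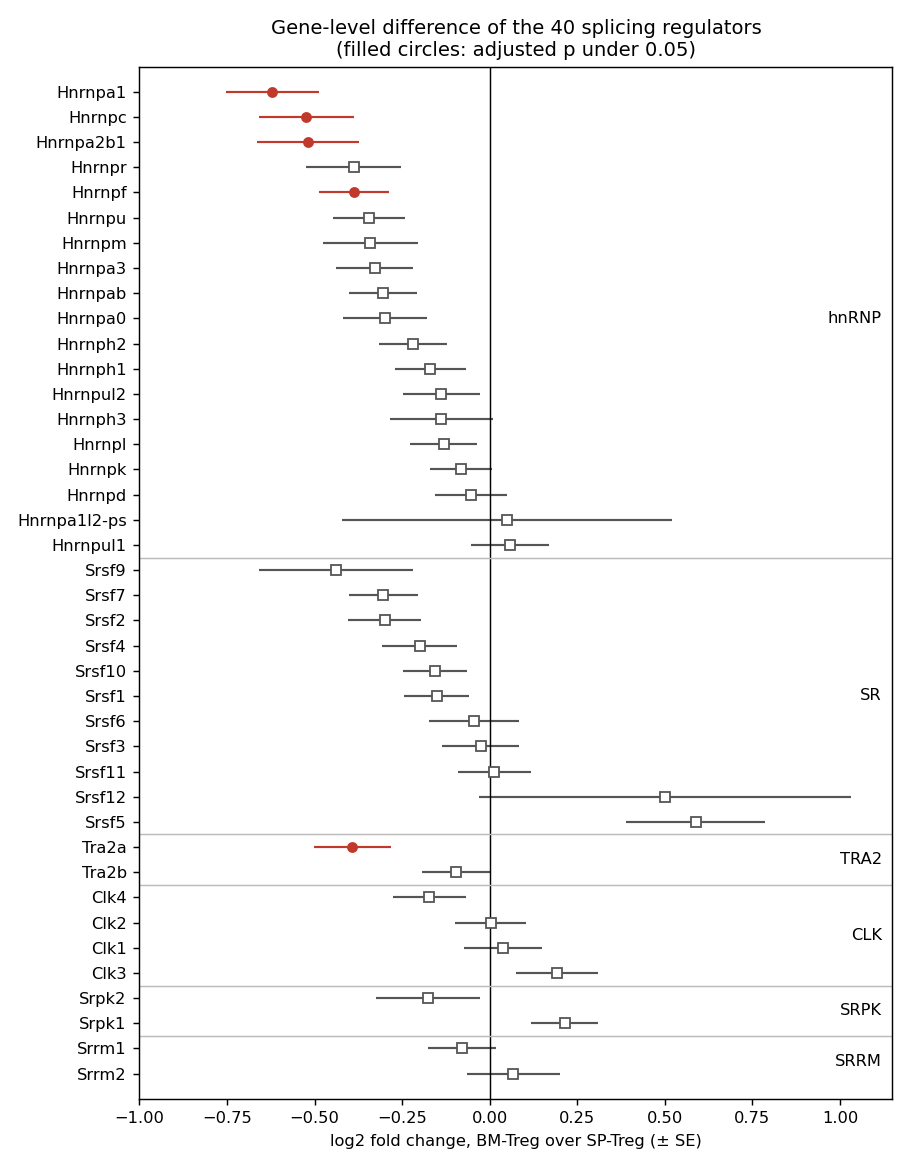
Log2 fold change of BM-Treg over SP-Treg (horizontal axis) for each of the 40 genes (rows), with its standard error as a bar, grouped by family, with filled red circles for genes called by edgeR and open squares for the others. The 5 called genes lie to the left of 0, with 4 in the hnRNP family, where 17 of 19 values are below 0, while Srsf5 has the highest value, 0.59.

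The hnRNP family held 4 of the 5 calls. Of its 19 genes, 17 had a log2 fold change below 0 with a median of -0.30. Among these, 11 had an unadjusted p under 0.05, beside 1664 of all 13397 genes tested that were lower at that p. Hnrnpa1 (ENSMUSG00000046434, chr15:103240432-103244955) encodes a core protein of hnRNP particles that represses exons by binding splicing silencers. It gave 170.3, 182, 225 and 209 CPM in BM-Treg replicates 1 to 4 against 318, 243, 279 and 368 CPM in SP-Treg (CPM, counts scaled by TMM to a common library size). Every BM-Treg library was below every SP-Treg library, and the level was 34.9% lower in BM-Treg, a log2 fold change of -0.62 ± 0.13 (SE, n = 4 per tissue) at adjusted p = 0.00966. Its call held when any single library was left out, with adjusted p-values between 0.00643 and 0.0414 in edgeR, but not on log2(FPKM + 1), where its adjusted p was 0.0664 in limma. Hnrnpa1 has many processed pseudogenes that share its sequence, among them Hnrnpa1l2-ps at a mean of 1.36 (BM-Treg) and 1.30 (SP-Treg) CPM, so that its counts depend on how shared reads were divided.

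Hnrnpa2b1 (ENSMUSG00000004980, chr6:51460434-51469894) encodes the A2 and B1 proteins, close relatives of hnRNP A1 that also sort RNAs. It gave 595, 625, 633 and 773 CPM in BM-Treg replicates 1 to 4 against 1186, 926, 696 and 954 CPM in SP-Treg. SP-Treg replicate 3 lay below BM-Treg replicate 4, so that the tissues overlapped, and the log2 fold change of -0.52 ± 0.15 (SE, n = 4 per tissue) reached adjusted p = 0.0395 in edgeR. Hnrnpc (ENSMUSG00000060373, chr14:52073380-52104028), which encodes the protein that binds uridine tracts of nascent RNA, gave 94.8, 107, 106 and 146 CPM in BM-Treg replicates 1 to 4 against 176, 155, 137 and 182 CPM in SP-Treg. BM-Treg replicate 4, the BM-Treg library of batch 3, lay within the range of SP-Treg, while replicates 1 to 3 lay below it, and the log2 fold change of -0.52 ± 0.13 (SE, n = 4 per tissue) had adjusted p = 0.0261. Hnrnpf (ENSMUSG00000042079, chr6:117900324-117925622), which encodes a protein that binds runs of guanine, gave 383, 396, 386 and 389 CPM in BM-Treg replicates 1 to 4 against 558, 490.2, 447 and 537 CPM in SP-Treg. The 4 BM-Treg libraries lay within a narrow range below all SP-Treg libraries, with a log2 fold change of -0.39 ± 0.10 (SE, n = 4 per tissue) at adjusted p = 0.0257. The calls of Hnrnpa2b1, Hnrnpc and Hnrnpf stood in 2, 3 and 2 of 8 fits, each made without a single library.

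**Figure D2:**
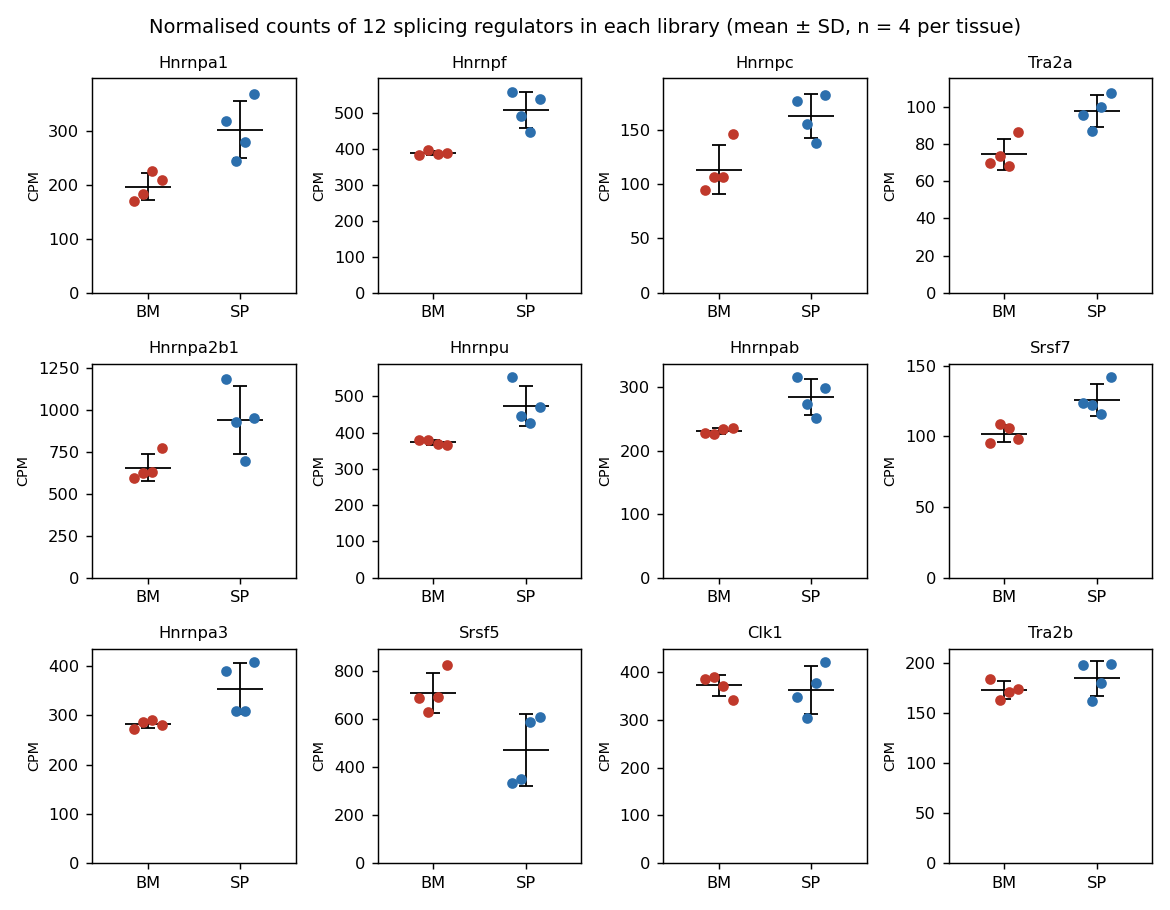
Normalised counts in CPM (vertical axes, from 0) in each library (points) for 12 of the genes, BM-Treg in red and SP-Treg in blue, with mean and SD over 4 libraries in black. The points of both tissues are apart for Hnrnpa1, Hnrnpf, Hnrnpu, Hnrnpab, Srsf7, Hnrnpa3, Tra2a and Srsf5, and overlap for Hnrnpc and Hnrnpa2b1, as well as for Clk1 and Tra2b.

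The libraries of both tissues did not overlap for 6 of the 19 hnRNP genes (31.6%), beside 16.2% of all genes tested. One of the 6, Hnrnph2, was far from a call (adjusted p = 0.189 in edgeR). Below the threshold, 3 further hnRNP genes without overlap had values close to a call. Hnrnpu, which encodes a nuclear scaffold protein, gave 378, 378, 369 and 367 CPM in BM-Treg replicates 1 to 4 against 553, 445, 426 and 472 CPM in SP-Treg. Its log2 fold change of -0.34 ± 0.10 (SE, n = 4 per tissue) had adjusted p = 0.0510 in edgeR. Hnrnpab gave 227, 226, 234 and 235 CPM in BM-Treg replicates 1 to 4 against 316, 274, 251 and 298 CPM in SP-Treg, with adjusted p = 0.0682. Hnrnpa3, a paralog of Hnrnpa1, gave 273, 286, 290.1 and 281 CPM in BM-Treg replicates 1 to 4 against 391, 309, 309.8 and 408 CPM in SP-Treg, with adjusted p = 0.0814. In all 3 genes the BM-Treg libraries lay close together and SP-Treg replicate 1 or 4 was the highest. At the other end of the family, Hnrnpk, its member with the highest FPKM, gave 349, 336, 362 and 356 CPM in BM-Treg replicates 1 to 4 against 386, 359, 365 and 376 CPM in SP-Treg and a log2 fold change of -0.08 ± 0.09 (SE, n = 4 per tissue). Its ranges in both tissues overlapped at a small difference (adjusted p = 0.629 in edgeR). The 2 hnRNP genes above 0 were Hnrnpul1, at 0.06 ± 0.11, and the pseudogene Hnrnpa1l2-ps, at 0.05 ± 0.47 (log2 fold change ± SE). The remaining 9 hnRNP genes lay between -0.39 (Hnrnpr) and -0.05 (Hnrnpd) on this scale.

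Among the 11 SR genes none was called by edgeR, with 3 at an unadjusted p under 0.05, and limma-voom and DESeq2 called 1 (Srsf5) and 3 (Srsf2, Srsf5 and Srsf7), beside 9.03% and 12.7% of all genes. Their median log2 fold change was -0.15, and 8 of 11 were below 0. Srsf7 (ENSMUSG00000024097, chr17:80200089-80207305), which encodes an SR protein that shuttles between nucleus and cytoplasm and also takes part in mRNA export, gave 95.6, 109, 106 and 97.9 CPM in BM-Treg replicates 1 to 4 against 124, 122, 116 and 142 CPM in SP-Treg. All BM-Treg libraries were below the SP-Treg libraries, and the log2 fold change of -0.30 ± 0.10 (SE, n = 4 per tissue) had adjusted p = 0.0701. Srsf5 (ENSMUSG00000021134, chr12:80945504-80950507), the SR gene with the highest mean FPKM over all libraries, was among the 3 of 11 above 0, with Srsf12 and Srsf11. It gave 686, 627, 691 and 825 CPM in BM-Treg replicates 1 to 4 against 333, 349.9, 589 and 609 CPM in SP-Treg. Each BM-Treg library exceeded each SP-Treg library, but SP-Treg replicates 1 and 2 lay far below replicates 3 and 4, and the log2 fold change of 0.59 ± 0.20 (SE, n = 4 per tissue) had adjusted p = 0.0951 in edgeR. Over 18 alternative settings its adjusted p lay between 0.0161 and 0.317, and 6 of them called it, among them both fits on log2 FPKM. The summed immediate early genes ran from 398 and 547 CPM in SP-Treg replicates 1 and 2 to 734 and 721 CPM in replicates 3 and 4, and their part in the value of Srsf5 was not tested. The canonical SR genes Srsf1 and Srsf3 were at -0.15 ± 0.09 and -0.03 ± 0.11. Srsf12, at a mean of 2.23 (BM-Treg) and 1.57 (SP-Treg) CPM, was too low for a precise value, with 0.50 ± 0.53.

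The TRA2 activators gave 1 call in 2 genes. Tra2a (ENSMUSG00000029817, chr6:49243921-49264052) gave 69.7, 73.9, 68.2 and 86.6 CPM in BM-Treg replicates 1 to 4 against 95.9, 87.2, 100.2 and 108 CPM in SP-Treg. BM-Treg replicate 4 was just below the lowest SP-Treg library, the tissues did not overlap, and the log2 fold change of -0.39 ± 0.11 (SE, n = 4 per tissue) had adjusted p = 0.0374 in edgeR, a call kept in 2 of the 8 fits without a single library. Tra2b, the TRA2 gene with the higher FPKM, gave 184, 163, 171 and 174 CPM in BM-Treg replicates 1 to 4 against 198, 162, 180.0 and 199 CPM in SP-Treg, which overlapped, with a log2 fold change of -0.09 ± 0.10 (SE, n = 4 per tissue). Whether Tra2a and Tra2b differ in their change was not tested.

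The kinases of SR proteins and the SRRM cofactors gave no call by edgeR, DESeq2 or limma-voom, with 1 of these 8 genes, Srpk1, at an unadjusted p under 0.05 in edgeR. Srpk1 (ENSMUSG00000004865, chr17:28587648-28622521) gave 312, 294, 288 and 259 CPM in BM-Treg replicates 1 to 4 against 236, 245, 266 and 246 CPM in SP-Treg. The lowest BM-Treg library, replicate 4, lay below SP-Treg replicate 3, and the log2 fold change of 0.21 ± 0.10 (SE, n = 4 per tissue) had adjusted p = 0.190. Clk1, the CLK kinase with the highest FPKM, gave 385, 390.5, 371 and 342 CPM in BM-Treg replicates 1 to 4 against 348, 303, 378 and 422 CPM in SP-Treg, and a log2 fold change of 0.04 ± 0.11 (SE, n = 4 per tissue). Clk2, Clk3 and Clk4 were at 0.00 ± 0.10, 0.19 ± 0.12 and -0.17 ± 0.10 (log2 fold change ± SE). Srrm2 gave 2134, 2019.6, 1864 and 2575 CPM in BM-Treg replicates 1 to 4 against 1722, 2146, 2422 and 1908 CPM in SP-Treg, and its ranges overlapped. The log2 fold changes of Srrm2, Srrm1 and Srpk2 were 0.07 ± 0.13, -0.08 ± 0.10 and -0.18 ± 0.15.

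Per length, these regulators were expressed above the typical gene: 38 of 40 exceeded the median mean FPKM of all genes tested (8.29 FPKM), and 21 of 40 exceeded 100 FPKM. By the mean over all libraries, the highest levels were those of Srsf5 (513 ± 30.5 FPKM in BM-Treg against 289 ± 96.9 FPKM in SP-Treg, SD, n = 4 each), Hnrnpk (370.2 ± 21.3 FPKM in BM-Treg against 381 ± 31.6 FPKM in SP-Treg) and Clk1 (371 ± 18.05 FPKM in BM-Treg against 309.8 ± 53.5 FPKM in SP-Treg). In BM-Treg, Srsf5 was the highest of these 3 genes, at 471 FPKM or more against at most 393 FPKM for Hnrnpk and 386 FPKM for Clk1. Hnrnpk and Clk1 overlapped in BM-Treg, and all 3 genes in SP-Treg, so that these orders are not settled. The SP-Treg means of Srsf2 (321 FPKM), Hnrnph1 (307 FPKM) and Hnrnpa2b1 (290 FPKM) were above that of Srsf5. That of Srsf2 was also above that of Clk1. The lowest were Srsf12 and Hnrnpa1l2-ps, at 0.859 and 1.49 FPKM over all libraries, followed by Srpk2 at 12.1 FPKM.

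Batches and single libraries changed these counts. With batch as a term in edgeR, 0 of the 40 genes were called and 6 had an unadjusted p under 0.05, and over all genes the count went from 1172 to 258. Within batch 3, where the BM-Treg library is a single one (assumed to vary like the SP-Treg libraries), 0 of the 40 and 98 of all genes were called by edgeR, with 2 of the 40 at an unadjusted p under 0.05. The direction of the hnRNP genes within batch 3 was below 0 in 15 of 19 with a median of -0.23, beside a median of -0.01 over all genes. The SR genes were below 0 in 5 of 11 with a median of 0.01, so that their median changed sign. Within batch 3 the log2 fold change of Hnrnpa1 was -0.52, that of Hnrnpf -0.37, that of Hnrnpa2b1 -0.27, that of Tra2a -0.16, that of Hnrnpc -0.14 and that of Srsf5 0.83. Single libraries mattered as well: edgeR called 1 of the 40 genes, Hnrnpa1, without BM-Treg replicate 1, 2 or 3 or SP-Treg replicate 1, 2 without SP-Treg replicate 4, 4 without SP-Treg replicate 2, 6 without BM-Treg replicate 4 and 7 without SP-Treg replicate 3. The calls over all genes moved too, from 690 of 13621 without BM-Treg replicate 2 to 1048 of 13735 without SP-Treg replicate 3. Batch 1 holds BM-Treg libraries only and gives no value.

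Whether the tissues differ in the transcripts that each gene makes was asked from the share of a gene's counts on each transcript. Of the 268 transcripts, 202 in 31 genes could be tested, and 2 were called, Hnrnpl-212 and Srpk1-201 (edgeR's test of differential transcript usage, each transcript against the others of its gene). On simulated data with large changes this test made a higher share of false calls than its threshold of 0.05 sets, so that a single call is less certain than its adjusted p. Over all genes 39 of 21671 transcripts were called, 0.18%. Transcript shares did not overlap between the tissues for 13 of the 202 (6.44%), beside 5.15% of all transcripts tested. An unadjusted p under 0.05 was reached by 8 of the 202, beside 460 of all 21671.

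Hnrnpl encodes a protein that binds CA-rich elements and regulates Ptprc exons. Hnrnpl-212 and Hnrnpl-206 are both annotated as retained introns in GENCODE M21 (GRCm38). They share exons 2 to 5 and the retained intron, and differ in their first exon, of 229 bases at chr7:28810940-28811168 in Hnrnpl-212 and of 54 bases at chr7:28808806-28808859 in Hnrnpl-206, and in 24 bases at the 3′ end. The junctions of exons 1 and 2 show what separates them (plus strand, first exon in capitals, exon 2 in lower case), and the third line shows the 5′ splice site that both leave unspliced (chr7:28815338-28815367, plus strand, first bases of the intron in capitals).
Hnrnpl-212 junction: GGCGGCGGCGGCGGGgagaactacgatgac
Hnrnpl-206 junction: CTCGCCGCCGAGCTGgagaactacgatgac
Hnrnpl retained splice site: acctcagtggacaagGTaatcctgatggct

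Hnrnpl-212 took 7.54, 9.58, 11.4 and 9.94% in BM-Treg replicates 1 to 4 against 0, 3.27, 0 and 0.0409% in SP-Treg. All BM-Treg libraries were higher than all SP-Treg libraries, of which 3 were at or near 0, and the difference had an adjusted p = 0.000510 in edgeR. A listed 0 is an estimate, and a count of 0 would allow a share of up to 0.150% and 0.151% in SP-Treg replicates 1 and 3, for counting error only. Over the alternative settings the adjusted p lay between 1.91e-10 and 0.584, and the call held without any single library. The transcript passed the expression filter through BM-Treg, where it had between 149 and 358 counts against 0, 58.1, 0 and 0.840 in SP-Treg. A transcript kept through one tissue alone is bound to differ, so this p adds little to the shares. With at least 10 counts required in every library it was not tested. Hnrnpl-206 moved the other way and took 50.3, 46.1, 41.02 and 37.8% in BM-Treg replicates 1 to 4 against 57.8, 53.3, 59.1 and 59.7% in SP-Treg, without overlap but not called (adjusted p = 1.0 in edgeR). Together both transcripts took 57.9, 55.7, 52.4 and 47.7% in BM-Treg replicates 1 to 4 against 57.8, 56.6, 59.1 and 59.7% in SP-Treg. These sums overlapped between the tissues, at 53.4 ± 4.41% in BM-Treg against 58.3 ± 1.38% in SP-Treg (mean ± SD, n = 4 each) (exact permutation test, two-sided p = 0.0857, adding the pair up having been chosen after their values were seen). The gene as a whole was at -0.13 ± 0.10 (log2 fold change ± SE).

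Srpk1-201 is annotated as an NMD transcript. It lacks a coding exon of 214 bases that the main coding transcript Srpk1-204 holds (chr17:28600243-28600456, minus strand, GRCm38), and starts at a later exon.
Srpk1 exon absent from Srpk1-201: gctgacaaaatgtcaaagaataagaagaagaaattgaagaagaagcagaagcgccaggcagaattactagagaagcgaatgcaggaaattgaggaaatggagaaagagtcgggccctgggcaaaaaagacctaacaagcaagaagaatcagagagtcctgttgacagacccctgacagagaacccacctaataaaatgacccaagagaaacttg
Its share was 0, 1.11, 0.993 and 3.78% in BM-Treg replicates 1 to 4 against 5.32, 11.1, 17.3 and 1.66% in SP-Treg. The lowest SP-Treg library lay below the highest BM-Treg library, and the adjusted p was 0.0271 in edgeR, between 0.00180 and 1.0 over the alternative settings. It was not tested when at least 10 counts were required in every library. The call was kept in 4 of 8 fits made without a single library and lost without BM-Treg replicate 2 or 3 and without SP-Treg replicate 2 or 3.

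**Figure D3:**
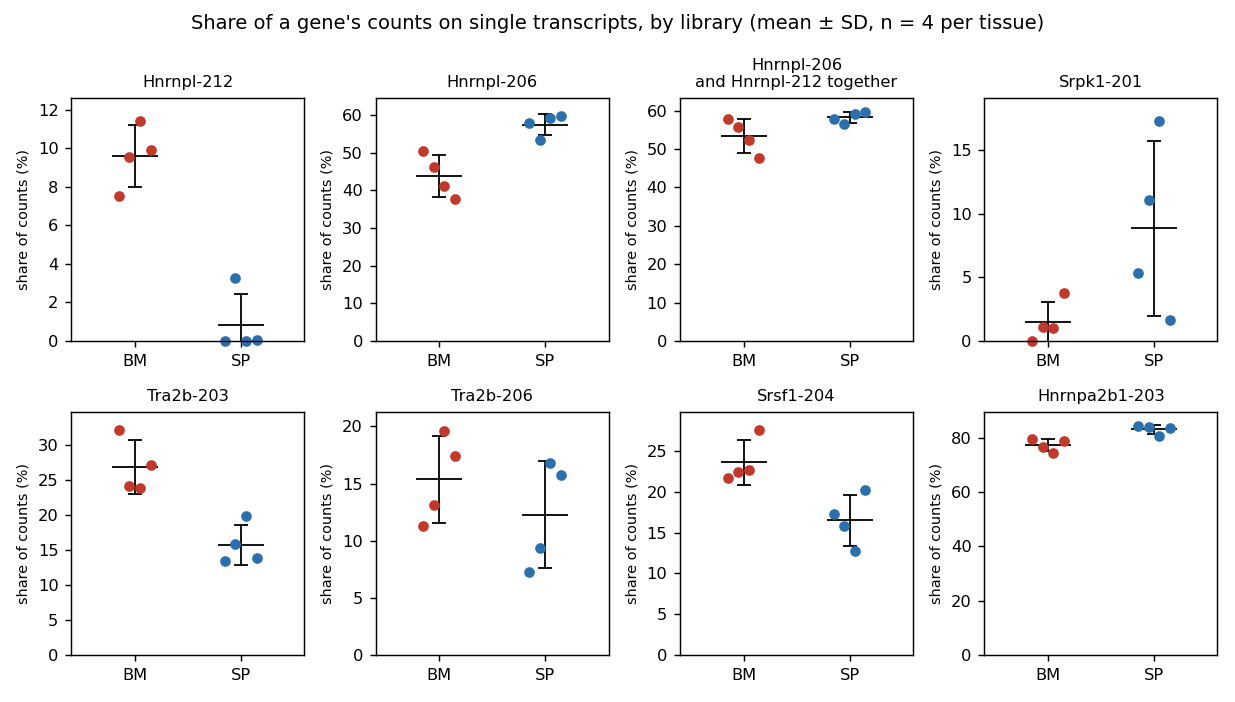
Share of a gene's expected counts on a transcript (vertical axes in percent, from 0) in each library (points), BM-Treg in red and SP-Treg in blue, with mean and SD over 4 libraries in black. Hnrnpl-212 is at 7.54% or more in BM-Treg and at 3.27% or less in SP-Treg, while its sum with Hnrnpl-206 overlaps between the tissues.

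Among transcripts with a mean share of at least 10%, the largest differences of mean share were those of Hnrnph2-205, Hnrnpl-206 (given above) and Srsf10-204. Hnrnph2-205, a coding transcript of a relative of Hnrnpf, took 40.2, 38.8, 26.9 and 40.8% in BM-Treg replicates 1 to 4 against 57.3, 41.2, 52.1 and 68.9% in SP-Treg, lower in every BM-Treg library but with adjusted p = 1.0 in edgeR. Srsf10-204, a coding transcript of the splicing repressor Srsf10, took 34.4, 9.47, 7.96 and 15.1% in BM-Treg replicates 1 to 4 against 31.0, 25.1, 38.97 and 20.96% in SP-Treg. Its BM-Treg libraries ran from the lowest share of all to close to the highest, so that the spread within BM-Treg exceeded the difference of -12.3 percentage points. The called genes Hnrnpa1 and Hnrnpc have 2 transcripts each, Hnrnpa2b1 has 3, Hnrnpf has 12 and Tra2a has 1. Hnrnpc-201 took between 52.1% and all of the counts in single SP-Treg libraries, a spread that sets the limit of these estimates for transcripts that differ by a short stretch.

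Hnrnpa2b1-203 holds the exon of 36 bases that makes the B1 protein (chr6:51467391-51467426, minus strand, GRCm38), shown because it is the coding difference within a downregulated gene.
Hnrnpa2b1 B1 exon: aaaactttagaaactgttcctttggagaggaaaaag
Its share, chosen after its values were seen, was 79.5, 76.7, 74.5 and 78.7% in BM-Treg replicates 1 to 4 against 84.2, 83.8, 80.6 and 83.6% in SP-Treg. It was lower in each BM-Treg library than in each SP-Treg library, by a mean of -5.73 percentage points, with adjusted p = 1.0 in edgeR. The transcripts also differ in their last exon, so that this share does not measure the exon alone.

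Counts on non-coding transcripts (NMD, retained intron and processed transcripts together) were then set against counts on coding transcripts of the same gene. Of the 40 genes, 22 had a mean of at least 20 counts on both kinds and could be tested, 15 had no non-coding transcript listed, the pseudogene Hnrnpa1l2-ps had no coding one, and 2 were below that minimum. No gene was called, 0 of 22 among these genes and 0% of the 3825 tested (limma on log2 odds), with 3 of the 22 and 292 of the 3825 at an unadjusted p under 0.05. With batch as a term, limma called 22 genes overall and 0 of the 22. The shares did not overlap between the tissues for 2 of the 22, Hnrnpd and Srsf1, beside 4.92% of all genes tested. In level, the median share was 39.6% over the 22 genes and 24.5% over all genes tested, and 7 of 22 exceeded 50% (31.8%, beside 20.99% of all genes). The 7 were Srsf3, Clk1, Hnrnpl, Clk2, Hnrnph1, Hnrnph3 and Hnrnpd, all named for their level after it was seen. Intron reads of any origin, including nuclear precursor RNA, count toward retained intron transcripts. The 40 genes had a median of 5.5 listed transcripts per gene, beside 3 over the 13397 genes tested for their level. The part of this number in the shares was not tested.

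**Figure D4:**
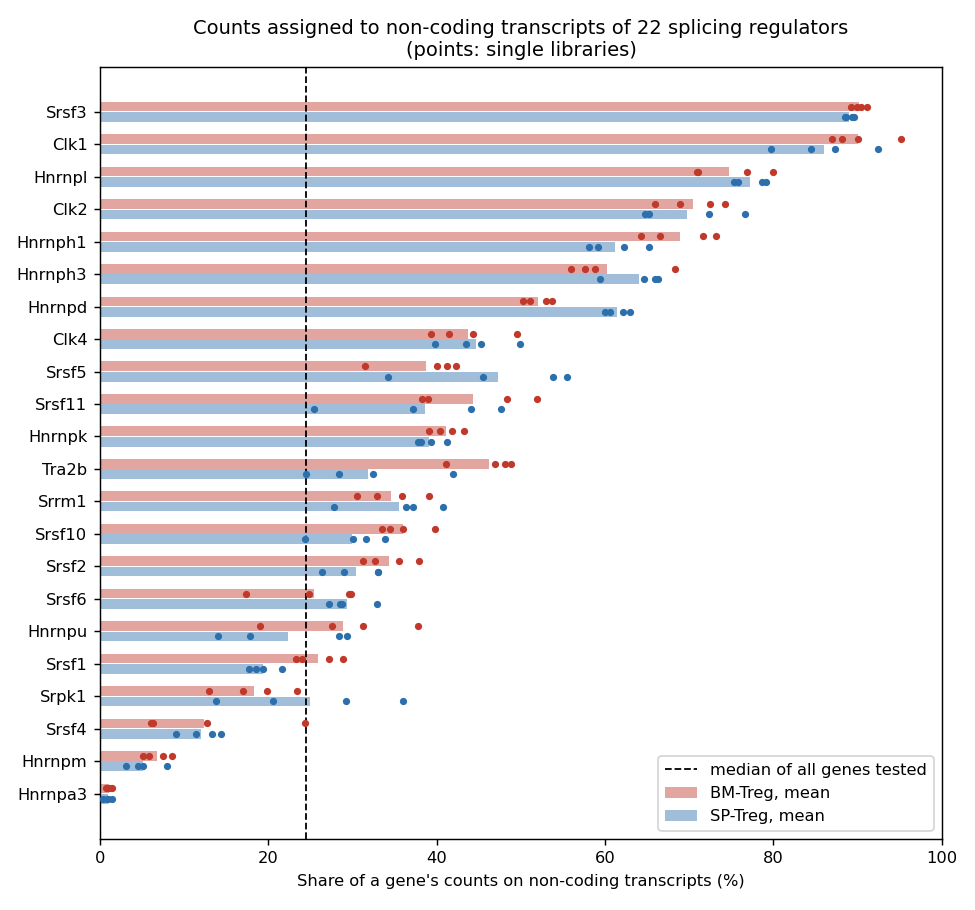
Share of a gene's expected counts on non-coding transcripts (horizontal axis in percent) for the 22 genes tested (rows), with mean bars and single libraries as points, BM-Treg in red and SP-Treg in blue, and the median of the 3825 genes tested as a dashed line at 24.5%. Srsf3 and Clk1 are at 79.8% or more in both tissues, and the points of the tissues are apart for Hnrnpd and Srsf1.

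In Srsf3, 90.1 ± 0.797% in BM-Treg against 88.99 ± 0.548% in SP-Treg (mean ± SD, n = 4 each) of the counts fell on non-coding transcripts. In Clk1 the values were 90.1 ± 3.63% in BM-Treg against 86.02 ± 5.32% in SP-Treg (mean ± SD, n = 4 each). Of the Clk1 counts over all libraries, 49.7% were on retained introns and 20.4% on NMD transcripts, mostly Clk1-210, which lacks the coding exon of 91 bases that Clk1-201 holds (chr1:58420121-58420211, minus strand, GRCm38). Clk1 is known to regulate the skipping of this exon in its own transcript.
Clk1 exon absent from Clk1-210: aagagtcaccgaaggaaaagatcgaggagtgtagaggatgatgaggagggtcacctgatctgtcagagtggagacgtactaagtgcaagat
Clk1-210 took 13.9, 27.1, 18.5 and 5.96% in BM-Treg replicates 1 to 4 against 26.7, 31.4, 11.9 and 19.98% in SP-Treg. Single libraries of either tissue covered most of the range, and the tissues overlapped.

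The lowest p among the 22 genes was that of Tra2b, a gene with a well-known poison exon. Its non-coding share was 48.9, 41.1, 46.97 and 48.1% in BM-Treg replicates 1 to 4 against 24.5, 28.4, 41.97 and 32.4% in SP-Treg. SP-Treg replicate 3 lay within the range of BM-Treg, and the difference on the log2 odds scale was 0.90 ± 0.28 (SE, n = 4 per tissue), with an unadjusted p = 0.0115 and an adjusted p = 0.531 in limma. Tra2b-206 holds an inserted exon of 276 bases (chr16:22258986-22259261, minus strand, GRCm38), and Tra2b-203 holds the same bases and 922 bases of the intron that follows. The start of this exon up to the stop codon it brings in (capitals) reads as follows (chr16:22259181-22259261, minus strand).
Tra2b inserted exon: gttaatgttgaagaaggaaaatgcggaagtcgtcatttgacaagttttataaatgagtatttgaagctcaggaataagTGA
Tra2b-203, named after its values were seen, took 32.1, 24.2, 23.8 and 27.2% in BM-Treg replicates 1 to 4 against 13.5, 15.9, 19.8 and 13.8% in SP-Treg. Its BM-Treg libraries were all higher, with an unadjusted p = 0.0377 and an adjusted p = 1.0 in edgeR. The transcripts with the inserted bases, Tra2b-203 and Tra2b-206, together took 42.2 ± 3.28% in BM-Treg against 28.03 ± 6.74% in SP-Treg (mean ± SD, n = 4 each), without overlap. This sum was chosen after the values were seen and is given with no test.

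The other pair with an unadjusted p under 0.05 moved in opposite directions. Srsf1, the founding SR protein gene, had a non-coding share of 27.2, 24.04, 23.3 and 28.9% in BM-Treg replicates 1 to 4 against 17.7, 19.3, 18.6 and 21.7% in SP-Treg, higher in BM-Treg without overlap, at 0.54 ± 0.20 on the log2 odds scale and adjusted p = 0.585 in limma. The NMD transcript Srsf1-204 held most of it, with 21.7, 22.4, 22.7 and 27.7% in BM-Treg replicates 1 to 4 against 17.3, 15.9, 12.8 and 20.3% in SP-Treg. Hnrnpd, which encodes the protein AUF1 that binds AU-rich elements and promotes mRNA decay, had a non-coding share of 51.1, 52.99, 50.2 and 53.7% in BM-Treg replicates 1 to 4 against 62.9, 60.5, 62.1 and 60.02% in SP-Treg. It was lower in BM-Treg without overlap, at -0.56 ± 0.20 on the log2 odds scale and adjusted p = 0.585 in limma.

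The rest of the splicing pathway was described from 5 lists of 113 genes: U1 and U2 snRNP and Sm proteins (25), the tri-snRNP and core factors (22), other RNA-binding splicing regulators (41), partners of SR proteins (10) and the NMD machinery (15). Of the 112 genes tested, 6 were called by edgeR (5.36%, beside 8.75% of all genes tested), 3 higher and 3 lower in BM-Treg. The median log2 fold change of the 112 was -0.06, with 79 values below 0. That is 70.5%, beside 75% of the 40 splicing regulators and 51.4% of all genes tested. The calls were 3 of 25 in the first list, 1 of 22, 1 of 40, 0 of 10 and 1 of 15 in the others, where for the partners of SR proteins 1 of 10 had an unadjusted p under 0.05. The 3 lower genes were Sf3b3, a subunit of the U2 snRNP complex SF3b that recognises the branch point (-0.49 ± 0.11, log2 fold change ± SE), Srek1, an SR-related regulator (-0.45 ± 0.11), and Sart1, which recruits the tri-snRNP (-0.34 ± 0.10). The 3 higher genes were the U1 snRNP gene Snrpc (0.58 ± 0.17), the SF3b subunit Sf3b5 (0.76 ± 0.19) and Smg9, a partner of the NMD kinase Smg1 (0.52 ± 0.14). Sf3b3 gave 83.3, 98.3, 90.1 and 85.6 CPM in BM-Treg replicates 1 to 4 against 145, 121, 112 and 125 CPM in SP-Treg. Its libraries did not overlap, and it was called in all 8 fits made without a single library, whereas Srek1 was called in 5, Sf3b5 in 3, Snrpc and Smg9 in 2 each and Sart1 in 0 of them. With batch as a term 0 of the 112 were called by edgeR. Of 3 genes whose exons these regulators are known to act on, Ptprc, Pkm and Malt1, 1 (Ptprc) was called, at -0.43 ± 0.11.

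Since the called genes moved in the same direction, their promoters were searched for CCAAT on both strands (CCAAT or ATTGG), the motif bound by NF-Y. RefSeq start sites (GRCm38.p6, windows that span the start) matched 37 of the 40 genes with 52 windows. At least 1 match was found in 25 of the 52 windows (48.1%), in 7 of the 9 windows of the 5 called genes, and in 37.4% of all 32851 windows. The single window of Hnrnpa1 (chr15:103240147-103240446, plus strand) held 4 matches and is shown with the matches in capitals. That number was reached by 5 of the 52 windows (9.62%) and by 1.06% of all windows. A match is a description of the letters only, and any part of NF-Y in these levels was not tested.
Hnrnpa1 promoter: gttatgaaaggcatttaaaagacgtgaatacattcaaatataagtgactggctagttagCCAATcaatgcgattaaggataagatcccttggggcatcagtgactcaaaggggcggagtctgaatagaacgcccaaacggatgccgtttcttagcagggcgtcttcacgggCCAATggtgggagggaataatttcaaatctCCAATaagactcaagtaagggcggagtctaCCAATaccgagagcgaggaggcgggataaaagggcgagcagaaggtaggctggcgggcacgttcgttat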

How the data were processed

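RNA from FACS-sorted cells was amplified with the SPIA method of NuGEN from 15 ng and single-end reads of 80 nt were made. Cutadapt 1.9, STAR 2.5.2a, RSEM 1.2.30 and the build GRCm38 are named in the submitters' processing notes. The annotation release and any use of strand are not given in the sources used here. The authors deposited expected counts (estimated by RSEM, not normalized between libraries) and FPKM values (those counts per length and depth, made by the authors) for genes and transcripts. Columns were matched to libraries by name, with 0 left unmatched.

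Expected counts were rounded. The default expression filter of edgeR 4.0.16 left 13397 of 38215 genes. After TMM normalization they entered its robust quasi-likelihood test without covariates, with Benjamini-Hochberg adjustment over all features tested and a threshold of 0.05. CPM values use TMM library sizes. Transcript usage was tested with edgeR's diffSpliceDGE on transcripts kept by the same filter in genes with at least 2 of them. Non-coding shares were tested with limma 3.58.1 on log2 odds with 0.5 counts added, where both kinds reached a mean of 20 counts. Transcript types are those of GENCODE M21 (265 of 268 transcripts matched). The scripts were tested on simulated data. DESeq2 1.42.0 and R 4.3.3 were also used. Log2 FPKM values carry 1 or 0.1 added. Depth was between 12427136 and 21921252 counts per library, and cDNA was amplified without molecular identifiers, so limits set by counts cover counting error only.

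Members and lists were chosen with earlier results of these data known. Named are the called genes, the 4 uncalled genes with the lowest p, the gene of each family with the highest FPKM, called transcripts and the 3 genes with the largest difference of a transcript share of at least 10%. Other members are given to account for the whole family, or with a remark that they were chosen after their values were seen. Alternatives covered normalization, test, filter, FPKM, batch, replicate block and single libraries.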

Additional observations from a re-analysis of the deposited data

Results flagged for a closer look

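In 40 groups of 4 libraries (the named genes in CPM and the named transcripts in percent), the gap between the highest or lowest library and its nearest neighbour was compared with the range of the group, and 2 groups exceeded Dixon's 95% critical value. Chance gives such a gap in about 1 in 20 groups. Hnrnpl-212 was at 3.27% of the Hnrnpl counts in SP-Treg replicate 2, against 0% to 0.0409% in the rest of SP-Treg. Hnrnph2-205 was at 26.9% of the Hnrnph2 counts in BM-Treg replicate 3, against 38.8% to 40.8% in the rest of BM-Treg.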

How the results depend on the processing

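The count of 5 downregulated genes (beside 8.75% of all genes called) became 11 with DESeq2's test (10 lower and Srsf5 higher, beside 12.7% of all genes). It became 1 with limma-trend on log2(FPKM + 1) (beside 5.71% of all genes) or log2(FPKM + 0.1), in both cases Srsf5. With batch as a term it became 0, and without a single library between 1 and 7. The count of 2 genes with a called transcript became 0 with limma on the logit share, 0 with at least 10 counts in every library, 1 with a mean share of at least 5%, and between 1 and 5 without a single library. Of the other splicing genes 6 were called, 0 with batch as a term and between 1 and 5 without a single library. The non-coding share gave 0 calls among these genes in every setting run, including counts of retained introns or of NMD transcripts alone, which were chosen after seeing the data. For the 15 named genes, 207 of 270 values kept direction and side of the threshold, while 44 lost and 13 gained a call. Only the 5 called genes could lose one. Over 18 settings each, the call stood in 14 for Hnrnpa1, 9 for Hnrnpc, 8 for Hnrnpf, 8 for Tra2a and 7 for Hnrnpa2b1. A further 6 values changed sign, none of them with a call. These were Clk1 (0.04 on the log2 scale), at -0.0863 with batch as a term, -0.0689 in batch 3 alone and -0.0416 without SP-Treg replicate 2 (up to 0.117 without another single library), Srrm2 (0.07), at -0.0307 without BM-Treg replicate 4 (up to 0.156 without another), and Tra2b (-0.09), at 0.0323 and 0.0326 on log2(FPKM + 1) and log2(FPKM + 0.1). Over all genes the 1172 calls became 1703 with DESeq2, 1210 with limma-voom, 765 and 728 on FPKM, 258 with batch as a term, 98 in batch 3 alone and between 690 and 1048 without a single library. The 39 called transcripts became 25 on the logit share, 20 and 11 under the stricter filters, 117 with batch as a term and between 53 and 115 without a single library. Cells per library, RNA per cell and the division of shared reads were not tested.

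Replicate numbers are shared between the tissues. The deviations of same-numbered libraries correlated between -0.176 and 0.059, and 2 of 4 BM-Treg libraries correlated best with their own number. With 4 libraries per tissue, these values cannot show whether same-numbered libraries share more than a number. With a replicate block 5 genes (Hnrnpa2b1 was lost, at adjusted p = 0.0584, and Srsf5 gained as higher, at 0.0220), 2 genes with a called transcript (Srpk1-201 was lost and Hnrnpd-208 gained) and 0 non-coding shares were called by edgeR and limma, and 948 genes and 25 transcripts over all.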

Other observations

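The tables hold 2 hnRNP genes under older symbols that the choice by symbol did not match, Hnrpll and Hnrpdl. Hnrpll encodes the hnRNP L-like protein, known for repressing Ptprc exons in T cells. It gave 91.9, 87.9, 81.4 and 83.1 CPM in the BM-Treg libraries and 132, 104, 101 and 104 CPM in the SP-Treg libraries. Every BM-Treg library was lower, with a log2 fold change of -0.36 ± 0.11 (SE, n = 4 per tissue) and an adjusted p = 0.0522 in edgeR. Hnrpdl, a relative of Hnrnpd, was at -0.16 ± 0.12 on the same scale (adjusted p = 0.466 in edgeR), and its libraries overlapped.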
